A study of Mesocricetus auratus with 6 samples.

Results

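The enzymes described here make purine nucleotides and supply the one-carbon units that purine synthesis consumes, with 1 enzyme of pyrimidine synthesis. The list named 10 genes, and on the array they were represented by all probe sets (groups of short probes against 1 transcript) whose platform annotation gave a single gene symbol equal to 1 of the names. This found 22 probe sets for 8 of the 10 genes, among 22626 tested probe sets that stood for 12393 gene symbols. The genes were Mthfd1 and Shmt2 with 3 and 4 probe sets, Shmt1 with 4, Paics and Gart with 3 each, Mthfd2 and Cad with 2 each, and Impdh1 with 1. Atic and Impdh2 were matched to no probe set in the annotation used and were not analysed here.

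The tissue was uterus of the golden hamster, Mesocricetus auratus, taken from females at day 5 of pregnancy. The labels give no treatment, strain, age or genotype. One group was 3 arrays of the places where an embryo had implanted. The other group was 3 arrays of the uterine segments between such places, which held no embryo, and the series' design text speaks of RNA sets from 3 animals. Both groups may therefore come from the same animals, but the labels do not say which arrays do. The main test treated the arrays as unpaired. All 6 arrays were of a mouse design, and hybridisation of the same study to a human array was not analysed here. The comparison asked which transcripts differ in level between the implantation site and the tissue beside it.

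De novo purine synthesis builds inosine monophosphate (IMP), the shared precursor of adenine and guanine nucleotides, on a ribose phosphate, and takes one-carbon units from folate at separate steps. Folate receives those units mainly from serine, in parallel sets of reactions in the cytosol and the mitochondria. Dividing and growing cells draw on these pathways for DNA and RNA, and the uterine stroma around an implanting embryo is known to proliferate and differentiate in rodents.

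Of the 22 probe sets 1 was called higher at the implantation site and 0 were called lower. That was probe set 1422198_a_at of Shmt1, the cytosolic serine hydroxymethyltransferase, which splits serine into glycine and a one-carbon unit; it rose 1.48-fold. The other 21 probe sets, including the brightest of every gene, did not pass the test. The test was limma on log2 signals with Benjamini-Hochberg adjustment over all 22626 probe sets, and "called" means an adjusted p under 0.05. On the whole array 1.26% of the probe sets were called higher and 1.05% lower, so that a single call of 22 (4.55%) is 1 probe set and no more. At an unadjusted p under 0.05 limma gave 4 of the 22 probe sets, all of them higher, where 5.63% of all probe sets were higher and 8.35% lower at that threshold.

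**Figure D1:**
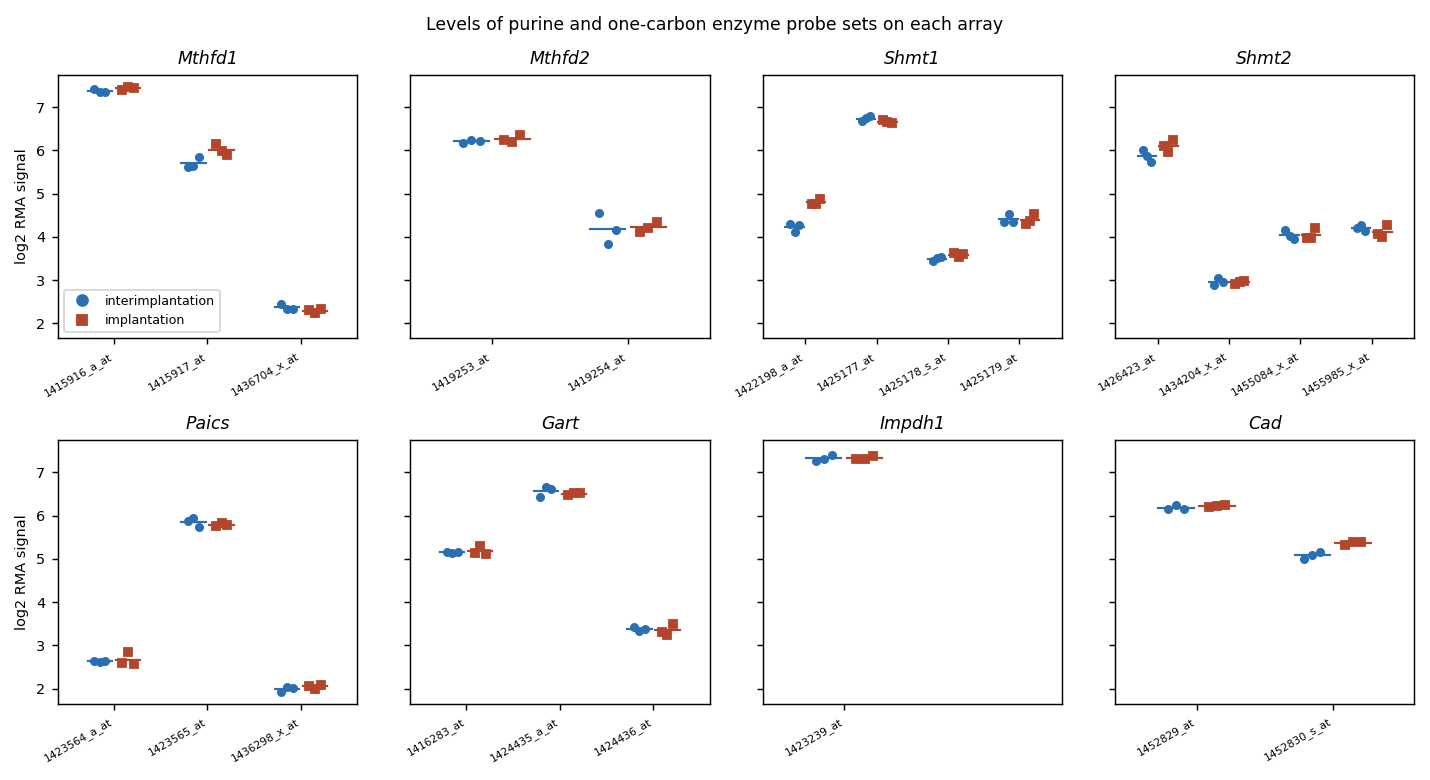
Each panel is 1 gene and each position on the x axis is 1 probe set, with the log2 RMA signal on the y axis. Points are single arrays (blue circles, interimplantation; red squares, implantation; 3 each) and lines are group means. The arrays separate clearly in probe set 1422198_a_at of Shmt1, and more narrowly in 1415917_at of Mthfd1 and 1452830_s_at of Cad; in the other 19 probe sets the groups overlap.

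Signals are given on a log2 scale as deposited, with a precision that the 3 arrays per group limit. Because the probes were made for mouse sequence, the level of a probe set also reflects how well hamster RNA matches it. Levels of different probe sets were therefore not read as relative amounts of transcript. They served only to choose the brightest probe set of a gene, to compare with controls, and for differences within an array set between the groups. Of the 22 probe sets 9 had a mean above the brightest of 27 control probe sets for Bacillus transcripts, to which no hamster RNA corresponds (5.79), and 3 lay at or under the median of those controls (2.68). Those 3 were 1436704_x_at of Mthfd1 and 1423564_a_at and 1436298_x_at of Paics, and their differences say little about the transcripts. On the array as a whole 19.1% of the probe sets had a mean above the brightest of these controls. The labels do not say whether RNA for these controls was added, so the brightest of them need not mark the background. The arrays' medians ran from 4.55 to 4.57. Hybridisation controls, bacterial and phage RNA added before hybridisation, averaged 6.45 to 6.77 on the implantation arrays and 6.75 to 7.27 on the interimplantation arrays. Shifting every array to equal controls took the overall median difference from −0.020 to 0.38, so a direction given here is relative to most other probe sets.

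The serine hydroxymethyltransferases stand at the entry of one-carbon units. For Shmt1, probe set 1422198_a_at read 4.76, 4.77 and 4.87 on the implantation arrays and 4.30, 4.11 and 4.28 on the interimplantation arrays. All 3 implantation arrays lay above all 3 others, and the gap was several times the spread within either group (4.80 ± 0.06 against 4.23 ± 0.10, SD, n = 3). The difference was 0.57 on the log2 scale (SE 0.09, 95% interval 0.38 to 0.76, limma adjusted p = 0.00461), and every array left out in turn kept the call. Its mean lay below the brightest Bacillus control, so a filter at that level removes the call.

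The other Shmt1 probe sets did not show that difference. The brightest, 1425177_at, read 6.71, 6.65 and 6.64 at implantation sites and 6.67, 6.74 and 6.79 between them. These groups overlapped, and the difference was −0.069 (95% interval −0.24 to 0.11, limma adjusted p = 0.774). Probe set 1425178_s_at differed by 0.096 and 1425179_at by −0.022, both within overlapping groups. The interval of 1422198_a_at does not reach into the intervals of these 3, whose highest bound was 0.27. The annotation gave another source sequence for 1422198_a_at than for the other 3, and whether the probe sets read different transcripts of Shmt1 was not tested. Calls often differed between probe sets of 1 gene on this array. Of 136 genes with several probe sets and at least 1 of them called higher, 126 had another that was not called. A missed call beside a call does not show that the differences disagree. In 61 of the 136 another probe set had a negative difference, and in 39 the brightest was not called. Among 447 genes with 4 probe sets the span from the lowest to the highest difference had a median of 0.25, and it was 0.64 for Shmt1, a span that 27 of the 447 reached or passed, Shmt1 included.

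Shmt2 encodes the mitochondrial hydroxymethyltransferase. Its brightest probe set, 1426423_at, read 6.11, 5.97 and 6.25 on the implantation arrays and 6.02, 5.87 and 5.73 on the interimplantation arrays. The means were apart, but implantation array 2 lay below interimplantation array 1. The difference of 0.23 (SE 0.10, 95% interval 0.013 to 0.46) did not pass (limma adjusted p = 0.324). The remaining Shmt2 probe sets, 1434204_x_at, 1455084_x_at and 1455985_x_at, were at −0.0034, 0.010 and −0.095, and all had means under the brightest Bacillus control. The within-array level of Shmt2 minus that of Shmt1, by their brightest probe sets, moved by 0.30 between the groups, which did not exceed what rearranged arrays gave (exact two-sided permutation test, p = 0.20, adjusted p = 0.40 over 2 such pairs; the smallest p that 3 against 3 arrays allow is 0.10). With the mean of all probe sets of each gene the same quantity was −0.11, the opposite sign.

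**Figure D2:**
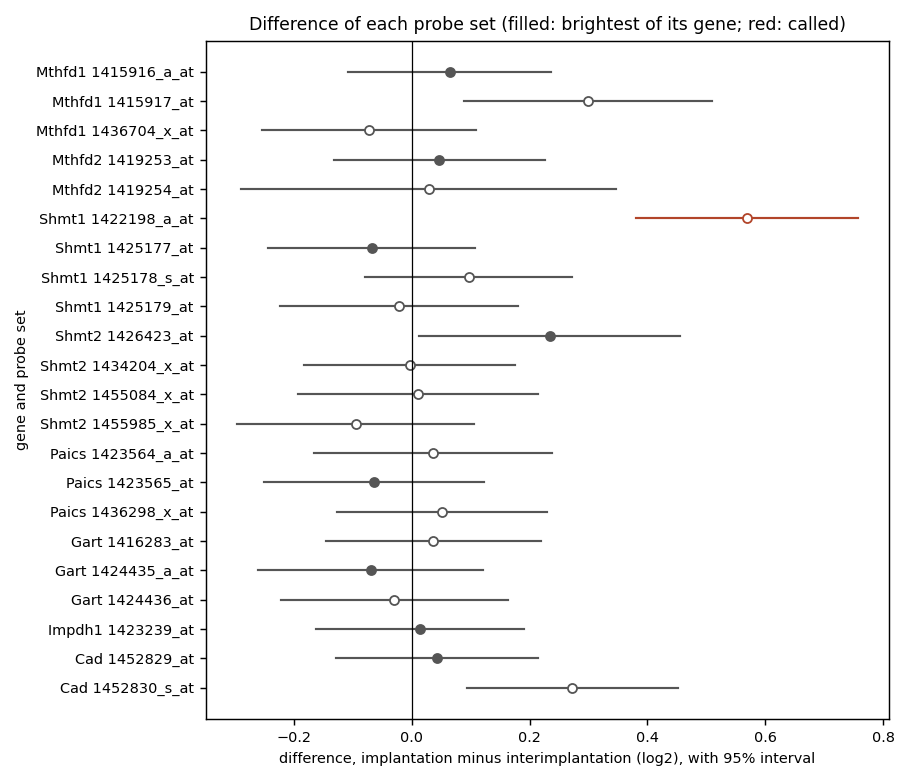
Difference between the group means for each of the 22 probe sets (x axis, log2, implantation minus interimplantation) with the 95% interval of the limma fit, which is not adjusted for the number of probe sets. Filled points are the brightest probe set of a gene, and the red one was called: 1422198_a_at of Shmt1 at 0.57, while the 8 filled points lie between −0.070 and 0.23.

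The MTHFD enzymes carry one-carbon units between the oxidation states of folate. Mthfd1 is the cytosolic enzyme that makes the formyl folate used by the purine pathway. Its brightest probe set, 1415916_a_at, read 7.40, 7.48 and 7.45 at implantation sites and 7.43, 7.36 and 7.35 between them, a difference of 0.064 (SE 0.08, limma adjusted p = 0.789) with overlapping groups. Another, 1415917_at, read 6.14, 5.97 and 5.89 against 5.61, 5.64 and 5.84. Here the groups did not overlap, although implantation array 3 and interimplantation array 3 lay close together, and the difference of 0.30 (95% interval 0.088 to 0.51) did not pass (limma adjusted p = 0.162). It was called only with every array shifted to equal hybridisation controls (0.70, limma adjusted p = 0.0417), a scaling that raised every probe set alike. The dimmest Mthfd1 probe set, 1436704_x_at, was at −0.073.

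Mthfd2, a mitochondrial enzyme of the same family, is known for high levels in embryonic and dividing cells. Its brighter probe set, 1419253_at, read 6.24, 6.19 and 6.35 on the implantation arrays and 6.17, 6.24 and 6.23 on the interimplantation arrays. The groups overlapped, and the difference was 0.046 (95% interval −0.13 to 0.23, limma adjusted p = 0.860). Its other probe set, 1419254_at, had the widest spread of the 22: the interimplantation arrays read 4.55, 3.84 and 4.16 (SD 0.36), and the implantation arrays, at 4.11, 4.20 and 4.33, lay inside that range. Mthfd2 minus Mthfd1 within an array moved by −0.018 (exact two-sided permutation test, p = 0.70, adjusted p = 0.70 over 2 pairs).

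Gart and Paics catalyse several of the steps from the ribose phosphate towards IMP, and Gart takes a one-carbon unit from folate. The brightest Gart probe set, 1424435_a_at, read 6.47, 6.51 and 6.52 at implantation sites and 6.43, 6.67 and 6.605 between them, and the groups overlapped. Its difference was −0.070 (95% interval −0.26 to 0.12, limma adjusted p = 0.791). Gart 1416283_at and 1424436_at were at 0.037 and −0.030. The brightest Paics probe set, 1423565_at, read 5.75, 5.84 and 5.78 against 5.87, 5.95 and 5.75, again with overlap, a difference of −0.064 (95% interval −0.25 to 0.12, limma adjusted p = 0.805). The dim Paics probe sets were at 0.036 and 0.051.

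Impdh1 encodes an IMP dehydrogenase, the enzyme that turns IMP towards guanine nucleotides and limits their synthesis. Its only probe set, 1423239_at, read 7.31, 7.31 and 7.39 on the implantation arrays and 7.27, 7.30 and 7.40 on the interimplantation arrays. The groups lay almost on each other, with a difference of 0.013 (95% interval −0.16 to 0.19, limma adjusted p = 0.964).

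Cad, a single protein with the opening enzyme activities of pyrimidine synthesis, was measured by 2 probe sets. The brighter, 1452829_at, read 6.20, 6.23 and 6.24 against 6.15, 6.24 and 6.15, and the groups overlapped (difference 0.043, 95% interval −0.13 to 0.21, limma adjusted p = 0.864). The other, 1452830_s_at, read 5.32, 5.38 and 5.38 at implantation sites and 5.00, 5.10 and 5.16 between them. Every implantation array was above every interimplantation array, but the difference of 0.27 (SE 0.08, 95% interval 0.093 to 0.45) did not pass (limma adjusted p = 0.133). The suffix of this probe set marks probes that other transcripts may share.

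Taking the genes by their brightest probe sets, 0 of 8 were higher and 0 lower by limma, with an adjusted p from 0.324 to 0.964, and Shmt2 was the 1 gene at an unadjusted p under 0.05. Over all genes 1.36% were called higher and 1.18% lower by that measure, and 1.68% were higher and 1.58% lower by any of their probe sets. The 8 differences ran from −0.070 for Gart to 0.23 for Shmt2 with a median of 0.028, beside −0.020 over all genes, and 5 of the 8 were positive. Their 95% intervals reached from −0.26 to 0.46, so that the data allow a rise of up to 1.37-fold in Shmt2, and a p that misses the threshold does not show equal levels. Over the 22 probe sets the median difference was 0.032, beside −0.020 for all probe sets, and 14 (63.6%) were positive, beside 43.5% of all. In 3 of the 22 (13.6%) the implantation arrays all lay above the others and in 0 below, where 7.62% and 11.7% of all probe sets did so. Probe sets of 1 gene share their transcript, so these shares are not over independent measurements.

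**Figure D3:**
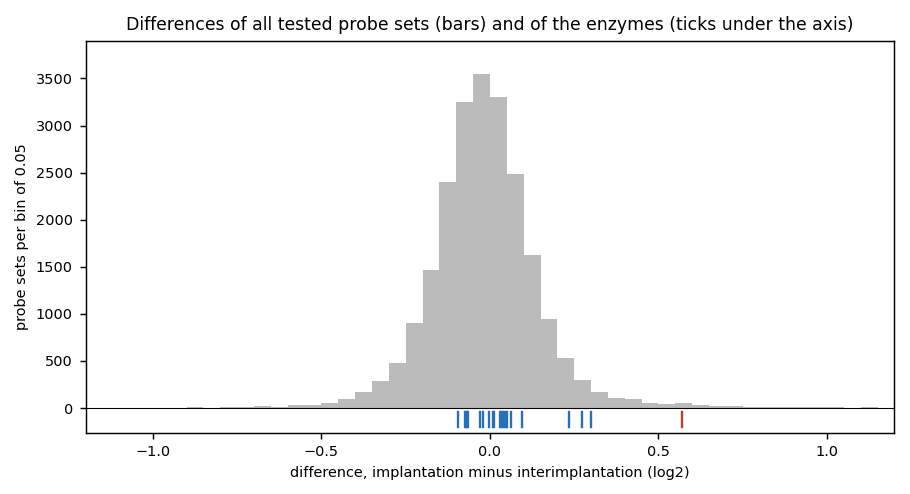
Bars count all 22626 tested probe sets by their difference (x axis, log2, implantation minus interimplantation; y axis, probe sets per bin of 0.05; the axis is cut at 1.2 on either side). Ticks under the axis are the 22 enzyme probe sets: 18 lie between −0.095 and 0.096, inside the bulk of the bars, those of Shmt2 1426423_at, Cad 1452830_s_at and Mthfd1 1415917_at lie in the upper tail at 0.23, 0.27 and 0.30, and the red tick is Shmt1 1422198_a_at at 0.57.

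The genes whose pattern over the 6 arrays was nearest to that of Shmt1 1422198_a_at were Heatr1, Actg1, 1810055G02Rik, Bola2 and Pdia6. Likeness was the root mean square difference after each probe set was centred on its own mean, among 3875 probe sets of other genes brighter than the brightest Bacillus control. It ran from 0.055 for Heatr1 to 0.077 for Pdia6. Their differences, from 0.49 for Actg1 to 0.55 for Bola2, and their being called follow from that choice and are no separate result. Heatr1 is a nucleolar protein of ribosome production, Actg1 a cytoplasmic actin and Pdia6 a disulphide isomerase of the endoplasmic reticulum. The Bola2 probe set was not the brightest of its gene, and Shmt1 1422198_a_at itself lay below the brightest Bacillus control.

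Around these enzymes, 58 other genes of nucleotide and folate metabolism were measured in 6 lists, and by limma 1 was higher and 1 lower by its brightest probe set. Over all genes 1.36% were called higher and 1.18% lower by that measure, so 1 of 58 each way is near the share of the array. At an unadjusted p under 0.05, lists of de novo purine synthesis, serine synthesis and purine salvage had 0 genes in either direction, folate genes 1 higher and 3 lower, pyrimidine synthesis 1 higher and 0 lower, and deoxynucleotide supply 3 higher and 1 lower. At that threshold 5.63% of all probe sets were higher and 8.35% lower. The 1 gene called higher was Rrm1, the large subunit of ribonucleotide reductase, which makes deoxynucleotides. It read 7.08, 7.19 and 6.87 at implantation sites and 5.85, 6.18 and 6.04 between them, with no overlap and a difference of 1.02 (SE 0.11, limma adjusted p = 7.09e-04). Its other probe set was at 0.22 and did not pass (limma adjusted p = 0.220). The 1 gene called lower was Folr2, a folate receptor found on macrophages among other cells. It read 5.93, 5.86 and 6.05 against 6.36, 6.49 and 6.42, all lower at implantation sites, a difference of −0.48 (SE 0.09, limma adjusted p = 0.0118). Folr2 lost its call at about the same difference without implantation array 1 or 2 (−0.47 and −0.44, limma adjusted p = 0.0735 and 0.0610) and with the level of the hybridisation controls as a covariate (−0.49, limma adjusted p = 0.105). With scaling to those controls the difference shrank to −0.080 (limma adjusted p = 0.724). Of 14 measured leukocyte markers limma called 0 (1, the macrophage marker Cd68, was at 0.38 with an unadjusted p of 0.0068), and the mean of the list ran from 4.75 to 4.83 at implantation sites and from 4.69 to 4.89 between them; 11 of the 14 were no brighter than the brightest Bacillus control. In uterine RNA, fewer cells of a type and less RNA per cell cannot be told apart.

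**Figure D4:**
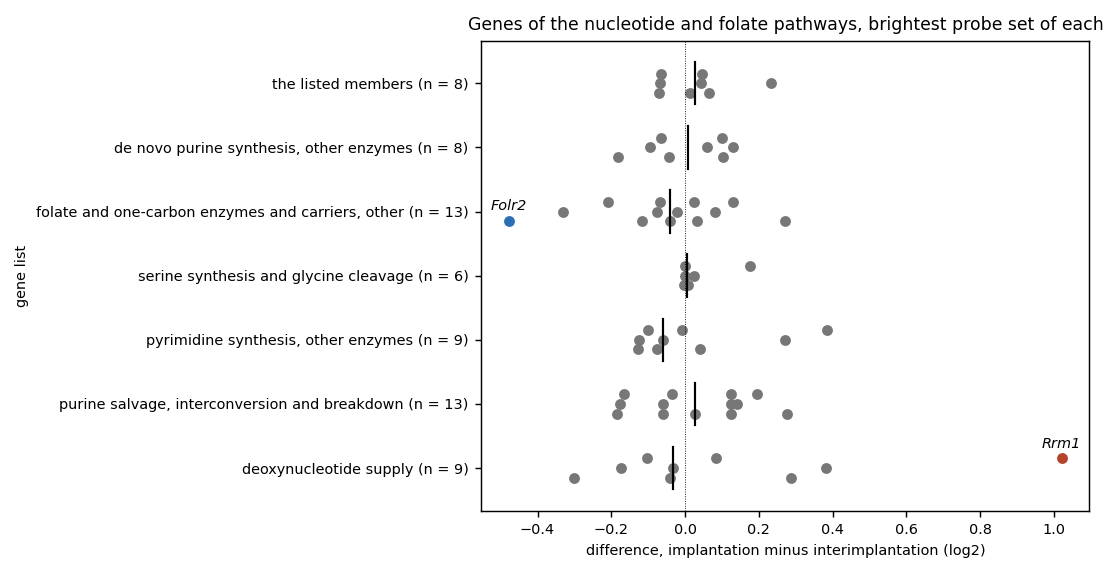
Each point is 1 gene by its brightest probe set, placed by its difference (x axis, log2, implantation minus interimplantation) in rows by gene list (y axis, with the number of genes measured); vertical bars are list medians. The medians lie between −0.061 and 0.028, and the 2 coloured points are the called genes, Rrm1 at 1.02 and Folr2 at −0.48.

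Of the other enzymes and regulators of de novo purine synthesis 0 of 8 were called in either direction, with a median of 0.0085. Prpsap1, a regulatory protein of the synthetase that makes the activated ribose, was at −0.18, with no overlap between groups. Prps2, one of those synthetases, was at 0.10, Prpsap2 at −0.095 and Adssl1, which converts IMP towards AMP in muscle, at 0.13. The lowest limma adjusted p of these 4 was 0.375, for Prpsap1.

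Of the other folate genes 0 of 13 were called higher and 1 lower, with a median of −0.041. Aldh1l1, which removes one-carbon units from folate by oxidation, was at −0.33 with no overlap and did not pass (limma adjusted p = 0.0718). Its other probe set, 1424401_at, was at −0.025 with overlapping groups (limma adjusted p = 0.935). For the brightest probe set, weighting the arrays by quality gave a call (limma adjusted p = 0.0411), as did leaving out interimplantation array 1 (limma adjusted p = 0.0430). Mtfmt, which formylates the mitochondrial initiator tRNA, was at 0.27 (limma adjusted p = 0.181), and Fpgs, which adds the glutamates that keep folate in cells, at −0.21 (limma adjusted p = 0.263).

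Serine synthesis and glycine cleavage, sources of one-carbon units beside the hydroxymethyltransferases, had 0 of 6 genes called and a median of 0.0041. Dld, a dehydrogenase shared by several mitochondrial complexes, was at 0.18, Gcsh at 0.024, and Psat1 and Psph of serine synthesis at 0.0086 and −0.0019. Only 1 of the 6, Phgdh of serine synthesis, was brighter than the brightest Bacillus control. Its brightest probe set was at −0.00032 with overlapping groups (95% interval −0.19 to 0.19). The other Phgdh probe sets were at 0.0094, 0.054 and 0.20 and were not called, and in the last of them, 1454714_x_at, the groups did not overlap. Dld and Psat1, with means of 2.40 and 2.63, lay under the median of those controls (2.68), and Psph at 2.69 barely above it. The differences of Dld, Psat1 and Psph say little about their transcripts.

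Beyond Cad, 0 of 9 genes of pyrimidine synthesis were called, with a median of −0.061. The nucleoside diphosphate kinases Nme2 and Nme1 were at 0.39 (limma adjusted p = 0.0567) and 0.27 (limma adjusted p = 0.422), and the uridine kinases Uck2 and Uck1 both at −0.13. The other Uck2 probe sets, 1417137_at and 1448604_at, had the opposite sign, at 0.21 and 0.20, and were not called. Nme2 was called with repeated quantile normalization (0.40, limma adjusted p = 0.0418) and with scaling to the hybridisation controls (0.78, limma adjusted p = 0.0153).

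In purine salvage and breakdown 0 of 13 were called, with a median of 0.026. The nucleotidase Nt5c2 was at 0.20, the AMP deaminase Ampd3 at −0.18, urate oxidase (Uox) at −0.18 and Itpa, which removes inosine triphosphate, at −0.17. Deoxynucleotide supply had 1 of 9 called higher and 0 lower, with a median of −0.032. Besides Rrm1, the small subunits of ribonucleotide reductase Rrm2 and Rrm2b were at 0.38 (limma adjusted p = 0.0779) and −0.30 (limma adjusted p = 0.135), and the thymidylate kinase Dtymk at 0.29 (limma adjusted p = 0.329). The other Rrm2 probe sets, 1434437_x_at and 1448226_at, were at −0.10 and −0.018 and were not called. Those of Dtymk, 1438096_a_at and 1449116_a_at, were at −0.12 and 0.0068, also not called. Shifting every array to equal hybridisation controls gave a call for the brightest probe sets of Rrm2 and Dtymk (0.78 and 0.68). The limma adjusted p-values were 0.0160 and 0.0463.

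Some markers of other cell states differed on the same arrays. For comparison, the array-wide shares of genes called by the brightest probe set were 1.36% higher and 1.18% lower. For probe sets at an unadjusted limma p under 0.05 they were 5.63% higher and 8.35% lower. A full gap between the groups was more frequent downwards (11.7% of the array's probe sets) than upwards (7.62%). Of 15 measured proliferation markers 5 were called higher and 0 lower. The 5 were Mcm7, Pcna, Ube2c, Cdk1 and Mcm5, from 0.54 for Cdk1 to 0.99 for Ube2c. Of the 15 differences 13 were positive and 2 negative, those of Ccna2 (−0.18, groups not overlapping) and Mcm6 (−0.041). Mki67, Top2a, Birc5 and Ccnb2 were at 0.023, 0.027, 0.040 and 0.083. The mean of that list ran from 4.87 to 4.99 at implantation sites and from 4.52 to 4.70 between them, and 14 of the 15 were no brighter than the brightest Bacillus control over the 6 arrays. Of 14 uterine epithelial markers 3 were called lower (Cldn7 at −0.78, Wnt7b at −0.50 and Sox17 at −0.53) and 0 higher. An unadjusted limma p under 0.05 was reached by 7 that were lower and 1, Ltf, that was higher (0.22). Of 10 smooth muscle markers 2 were called lower (Actg2 at −1.74 and Tagln at −1.26, both larger in size than any enzyme difference) and 0 higher. That unadjusted p was reached by 5 lower markers and 1 higher marker (Synpo2 at 0.25). The part of these shifts in the differences of Shmt1, Rrm1 and Folr2 was not tested. Of 12 markers of uterus and stroma limma called 0 by their brightest probe sets, though 1 of their 19 probe sets was called lower. An unadjusted p under 0.05 was reached by 1 that was higher and 2 that were lower. These were Hand2 at 0.58 (limma adjusted p = 0.0685, groups not overlapping), Hoxd10 at −0.38 and Vim at −0.29. Of the 12 markers 8, Hoxa10 and Hoxa11 among them, exceeded the brightest Bacillus control. The steroid receptors Esr1 and Pgr lay between the median and the brightest of those controls. Trophoblast and embryo markers had 0 of 13 called and 0 at an unadjusted p under 0.05, and 12 of them were no brighter than the brightest Bacillus control; 0 of 7 endothelial and 0 of 3 erythroid markers were called, with 1 of each lower at an unadjusted p.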

How the data were processed

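RNA of 6 uterine samples was hybridised to an Affymetrix mouse array. Per the submitters' processing notes, the authors used Partek 6.6 and RMA (robust multi-array averaging: background correction, equalised distributions, 1 value per probe set). The deposited values are on a log2 scale; the base is taken as 2 because RMA usually gives it and the range fits. RMA removes shifts shared by all probe sets, and mouse probes can lose signal on hamster RNA.

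Of 22690 probe sets 64 controls were left out; 22626 were tested without a filter. The platform annotation gave 1 symbol for 20380, several for 691 (not named) and none for 1555. All 10 member symbols occur in the hamster RefSeq annotation BCM_Maur_2.0. Without a sequence table, no sequence or position is given.

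Groups came from the sample titles. R 4.3.3 with limma 3.58.1 (lmFit, eBayes, group as the only term, two-sided) gave p-values, adjusted by Benjamini-Hochberg over 22626 probe sets; every adjusted p of a single probe set is from limma. The brightest probe set stood for a gene. Differences are implantation minus interimplantation. The rule named every member, from each list the genes of smallest p up to 4, all called list genes and the 5 nearest in pattern. Members and lists were chosen with earlier results of these data known. Tested on simulated data (this comparison, 22626 probe sets), 60% of 50 probe sets changed 1.5-fold and 86% of 50 changed 2-fold were called, with 3 false calls.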

Additional observations from a re-analysis of the deposited data

How the results depend on the processing

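The call of Shmt1 1422198_a_at held under all 13 alternatives that tested it (0.51 to 0.97, limma adjusted p from 9.46e-04 to 0.0366). Of the 22 member probe sets, 0 were called higher without the dimmer ones, because 9 were left and Shmt1 1422198_a_at was not among them, and 2 with scaling to the hybridisation controls. Of the 8 member genes 1 was higher by the probe set with the smallest p. None of the 22 probe sets or 8 genes was called lower under any alternative run. Of the 58 pathway genes, 4 were higher with scaling to the hybridisation controls and 2 with repeated quantile normalization. Those settings called 3.32% and 1.39% of all probe sets higher. Lower pathway genes numbered 2 with array weights, 0 with the control scaling, 0 when the control level was a covariate, and 0 to 2 without single arrays. Of all probe sets 1.6% were called lower with array weights, 0.0575% with the control scaling and 0.575% with the covariate. Across 288 alternative values of the member probe sets, 258 kept their direction and side of the threshold, 1 became called and 29 changed sign without a call.

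The replicate number as a block gave 1 member probe set higher, 0 lower, 0 of 8 member genes called in either direction, and 1 higher and 1 lower pathway gene. Same-numbered arrays deviated with correlations of −0.090, 0.071 and −0.028, and 1 of the 3 implantation arrays correlated best with its own number. The labels name no pairing, so the numbers were not taken as pairs. With 3 arrays a group these correlations cannot show whether arrays came from the same animal, under these or other numbers. Paired within numbers, Shmt2 minus Shmt1 moved by 0.30 (exact sign-flip p = 0.25, the smallest possible) and Mthfd2 minus Mthfd1 by −0.018 (exact sign-flip p = 1).

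Signs turned as follows, and apart from the common shift of the control scaling the cause was not tested. With scaling to the controls, Mthfd1 1436704_x_at was at 0.32, Shmt1 1425177_at at 0.33 and 1425179_at at 0.38, Shmt2 1434204_x_at at 0.39 and 1455985_x_at at 0.30, Paics 1423565_at at 0.33, and Gart 1424435_a_at and 1424436_at at 0.33 and 0.37. In the fit that holds the control level as a covariate, Mthfd1 1436704_x_at was at 0.030, Paics 1423564_a_at at −0.055, Gart 1416283_at at −0.016, Gart 1424436_at at 0.081 and Cad 1452829_at at −0.0086. With repeated quantile normalization Shmt2 1434204_x_at was at 0.015 and Impdh1 at −0.0021. Without single arrays, Mthfd2 1419254_at ran from −0.14 to 0.21, Shmt1 1425179_at from −0.086 to 0.038, Shmt2 1434204_x_at from −0.045 to 0.036, Shmt2 1455084_x_at from −0.060 to 0.068, Paics 1423564_a_at from −0.053 to 0.088, Gart 1416283_at from −0.021 to 0.071, Gart 1424436_at from −0.10 to 0.020, Impdh1 from −0.012 to 0.049 and Mthfd2 minus Mthfd1 from −0.062 to 0.036. Shmt2 minus Shmt1 was −0.11 with the mean of all probe sets. The planned comparison of Impdh2 with Impdh1 was not run. With 3 arrays a group and mouse probes, differences of 1.5-fold or 2-fold can be missed too: on simulated data 60% and 86% of them were called.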
